A study of Mus musculus with 6 samples.

Results

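The genes described here are 40 transcripts of blood cells, measured in RNA from sorted thymic epithelium of the mouse. They were chosen by name as markers of blood cells that a sort of epithelium can carry along, and they are 40 of the 51810 genes in the deposited table of the series. By role, 17 mark thymocytes, 6 mark B cells, 11 mark macrophages and dendritic cells, 5 mark red cells, and Ptprc encodes CD45, the surface phosphatase shared by nearly all leukocytes. Each library came from 75000 sorted cells of the population that the labels call mTEChi, the mature medullary epithelial cells with high surface MHC class II, taken from thymi of mice aged 4 to 5 weeks. The 3 control libraries are titled P53-NoCre with the genotype P53-WT and are called WT here, and the 3 libraries of the other genotype are labelled P53-cKO, a conditional deletion of Trp53 (cKO). The labels do not name the Cre line, do not say whether the controls carry floxed alleles, and do not say whether each library is a separate animal, so p-values measure the spread between these libraries, which may be technical.

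The thymus is densely packed with thymocytes, which assemble their antigen receptor genes with the RAG recombinase and then carry the CD3 complex with the coreceptors CD4 and CD8. The medulla also holds B cells, macrophages and dendritic cells, and its vessels hold red cells. Mature medullary epithelial cells transcribe many genes of other tissues under the regulator Aire, and they display the products to thymocytes. In bulk RNA, a few carried-over blood cells and low transcription of the same gene in the sorted cells cannot be told apart, and neither can fewer cells of a type and less RNA per cell.

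The depth was similar in all libraries, between 45457892 and 50128045 counts, so the floor of 3 counts lay between 0.0598 and 0.0660 CPM (counts scaled to the library total). No member was at 0 or under that floor in all libraries. The deletion was visible in the counts of Trp53, with 5351, 4837 and 5314 in WT and 386, 361 and 369 in cKO. The epithelial markers were abundant, with Epcam at means of 510 and 588 TPM (the deposited level, scaled for transcript length) and Aire at 771 and 627 TPM in WT and cKO. The class II MHC genes Cd74 and H2-Aa were at 22748 and 5185 TPM in WT and 22578 and 5195 TPM in cKO. Of 20 genes listed for mTEChi, not all particular to that population, edgeR called 0 between the genotypes. Of these genes 5 had an unadjusted p under 0.05, beside 8.51% of all genes. Limma-voom called 0 and DESeq2 called 1, the epithelial factor Foxn1. In edgeR the log2 fold change of Foxn1 was −0.54 (SE 0.0869, adjusted p = 0.0506), at 139.8 TPM in WT and 97.5 TPM in cKO. The list's median log2 fold change was −0.01. Within the genotypes, the variance between libraries was 6.73 times the counting variance at the median over the genes tested and 22.9 times at the median member. This ratio rises with the count at an equal relative spread, so the 2 medians do not compare how much the genes vary. It was 10.3 for Csf1r, with a 1.20-fold spread over the libraries, and 3.92 for Siglech, with a 4.53-fold spread.

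Promoter sequences are shown for 3 members on which the results below turn. Rag1 and Dntt encode a RAG subunit and the terminal transferase that adds bases at receptor gene joints, and they had the smallest p by library number. Hba-a2 encodes an alpha globin and had the smallest p between the genotypes. Each run is the 250 bases upstream of the RefSeq start in GRCm38.p6, read 5′ to 3′ on the gene's strand, at chr2:101649533-101649782 (minus strand) for Rag1, chr19:41029025-41029274 (plus strand) for Dntt and chr11:32296242-32296491 (plus strand) for Hba-a2. In the first 2 runs, capitals mark the E-box (CANNTG), the motif bound by E proteins, and the CCAAT box, and in Hba-a2 they mark the CCAAT and CACCC boxes, found on either strand.
Rag1: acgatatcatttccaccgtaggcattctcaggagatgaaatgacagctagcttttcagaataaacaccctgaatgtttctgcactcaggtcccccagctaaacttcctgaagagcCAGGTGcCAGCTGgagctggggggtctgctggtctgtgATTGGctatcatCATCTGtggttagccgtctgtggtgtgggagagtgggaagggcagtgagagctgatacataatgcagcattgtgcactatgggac
Dntt: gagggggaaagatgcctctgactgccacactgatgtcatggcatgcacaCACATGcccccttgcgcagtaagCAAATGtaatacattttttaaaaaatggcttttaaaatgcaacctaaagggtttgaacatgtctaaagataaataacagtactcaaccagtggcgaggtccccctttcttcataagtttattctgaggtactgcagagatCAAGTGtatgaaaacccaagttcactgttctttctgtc
Hba-a2: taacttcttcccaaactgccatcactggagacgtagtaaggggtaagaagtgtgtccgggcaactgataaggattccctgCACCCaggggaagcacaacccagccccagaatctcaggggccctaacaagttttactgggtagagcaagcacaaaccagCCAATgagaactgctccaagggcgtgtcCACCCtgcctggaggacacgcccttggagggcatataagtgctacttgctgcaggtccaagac

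Promoter entries were found for 31 of the 40 members. Rag1 and Dntt each held 3 E-boxes, and 11 of the 13 thymocyte members with an entry held at least 1, beside 66.2% of all 32851 promoters of that length. A TATA box (TATAAA or TTTATA) was in 0 of those 13, beside 12.4% of all promoters. The ETS core (GGAAGT or ACTTCC) was in 5 of the 13, beside 19.7% of all, and the GATA site (AGATAA or TTATCT) in 2, beside 9.99%. The CCAAT box (CCAAT or ATTGG) was in 1 of the 13, Rag1, beside 33.8% of all, and the CACCC box (CACCC or GGGTG) in 9, beside 52% of all. The windows of the 2 alpha globin genes, Hba-a1 and Hba-a2, share an identical run of 247 bases. A match is a stretch of letters, and no motif overlaps were removed.

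All 40 members passed the filter on low counts and were tested between the genotypes. None was called higher and none lower (edgeR quasi-likelihood test with the genotype as its only term, Benjamini-Hochberg adjusted over 28543 genes). Over all genes tested, 0.0596% were called, 0.0245% higher and 0.035% lower in cKO, so a count of 0 of 40 does not set the members apart. DESeq2 and limma-voom also called 0 of the 40, but DESeq2 gave no adjusted p for at least Siglech and Ptcra. With the library number added as a term, edgeR called Hba-a2 lower (adjusted p = 0.0221), beside 0.228% of all genes. In the edgeR fit on the genotype alone, 4 members had an unadjusted p under 0.05, Ebf1, Siglech, Hbb-bt and Hba-a2, beside 8.51% of all genes. The median log2 fold change of the members was −0.09, with 27 of 40 below 0. That of all genes tested was −0.01, with 14544 of 28543 below 0. In that fit the values ran from −0.99 for Siglech to 0.40 for Ms4a1, and the smallest adjusted p was 0.341, for Hba-a2.

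**Figure D1:**
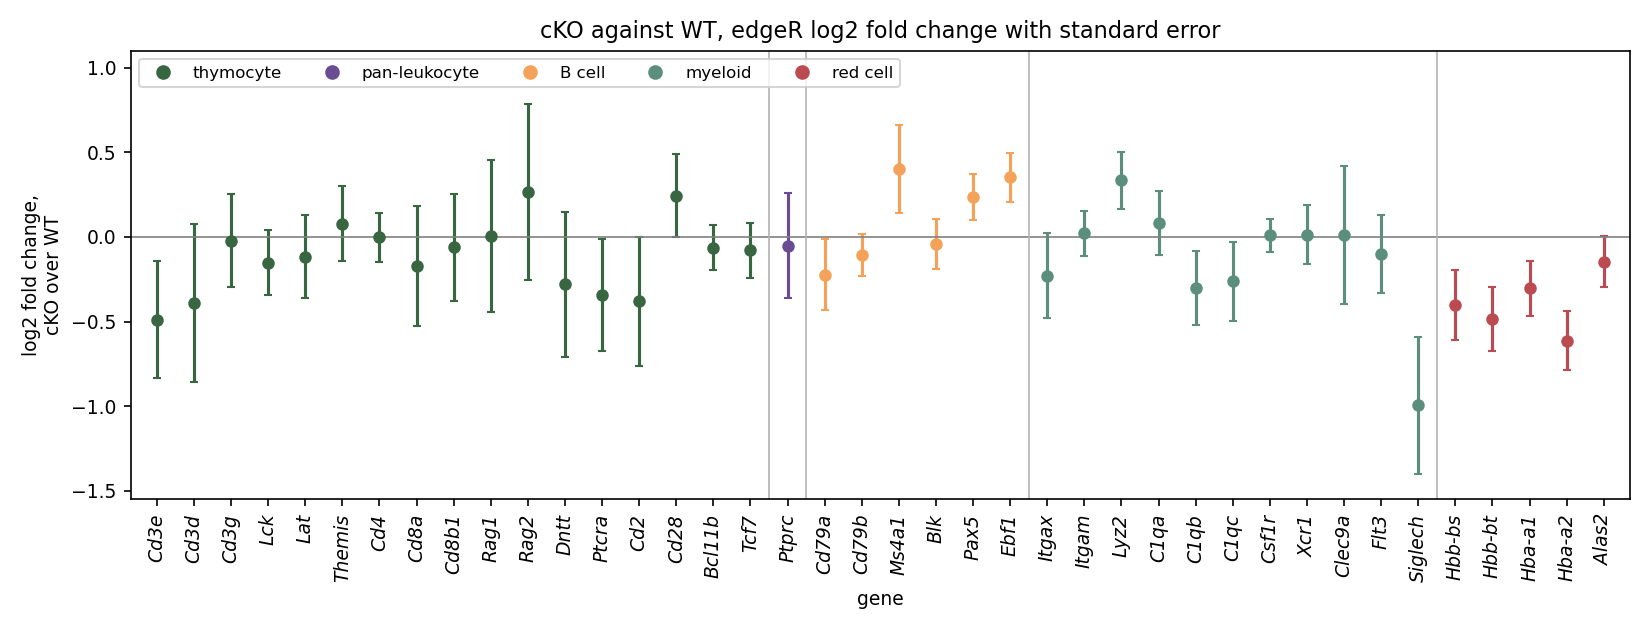
Log2 fold change of each of the 40 genes, cKO over WT, from the edgeR fit (points, coloured by cell type) with its standard error (bars), n = 3 libraries each. The 5 red cell genes all sit below 0, from −0.61 to −0.15, Siglech is lowest at −0.99, and none passed the adjusted threshold.

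Levels per transcript length covered a wide range within each cell type. Lyz2, the lysozyme gene of macrophages, had the highest level of the 40, with a mean of 905 ± 122 TPM in WT and 1160 ± 230 TPM in cKO (SD, n = 3 each), at the 99.7th percentile of the tested genes. Tcf7, the gene of the T cell factor TCF1, followed at 86.6 ± 13.8 and 83.7 ± 18.96 TPM, then Hba-a2 at 77.1 ± 8.18 and 51.1 ± 12.6 TPM, and C1qb, a chain of complement C1q, at 66.1 ± 15.4 and 54.6 ± 12.5 TPM. The ranges of mean ± SD of these 3 neighbours in the order overlapped in WT. The lowest level was that of Rag2, the second RAG subunit, at 0.429 ± 0.147 and 0.532 ± 0.339 TPM. The median of the members' mean levels was 6.58 TPM, close to the 6.34 TPM of all genes tested. In WT and cKO, Ptprc was at 2.27 and 2.24 TPM, the macrophage gene Csf1r at 15.6 and 16.0 TPM and Cd3e at 2.45 and 1.79 TPM. Which cells the RNA of Lyz2 and Tcf7 came from was not tested.

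**Figure D2:**
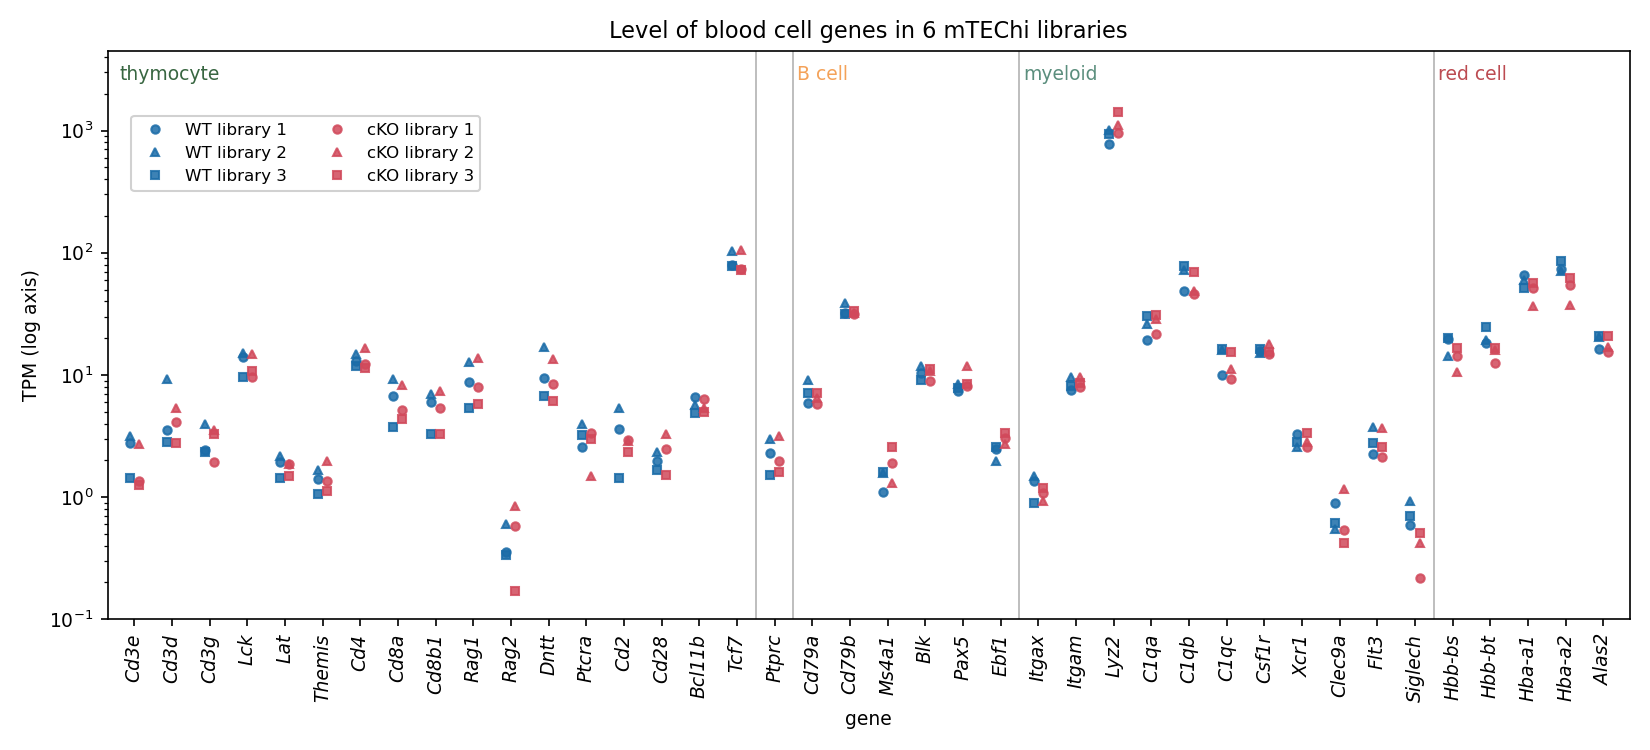
Deposited TPM of each gene in every library on a log axis, in blue for WT and red for cKO, with a symbol for the library number. Lyz2 lies between 769 and 1412 TPM, Rag2, Clec9a and Siglech lie around or under 1 TPM, and the 2 genotypes overlap for most genes. The unlabelled column between thymocyte and B cell genes is Ptprc.

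The thymocyte genes varied with the library number in both genotypes. The summed level of the 17 genes was 245, 330 and 211 CPM in WT libraries 1 to 3 and 225, 313 and 207 CPM in cKO libraries 1 to 3, which gave means of 261.9 ± 61.2 and 248 ± 56.6 CPM (SD, n = 3 each). Both libraries numbered 2 were thus the highest of their genotype and both numbered 3 the lowest, and the genotypes overlapped. Of the 17 genes, 11 had their 2 highest values in the libraries numbered 2, beside 6.32% of all genes tested, and 12 had their 2 lowest in those numbered 3, beside 7.3% of all. Both counts describe the same values that showed the order. Genes of 1 cell type can move together, so the 17 are not independent and the shares over all genes are not chance levels. The labels do not say what a library number stands for, and whether same-numbered libraries share a day, litter or sort was not tested.

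**Figure D3:**
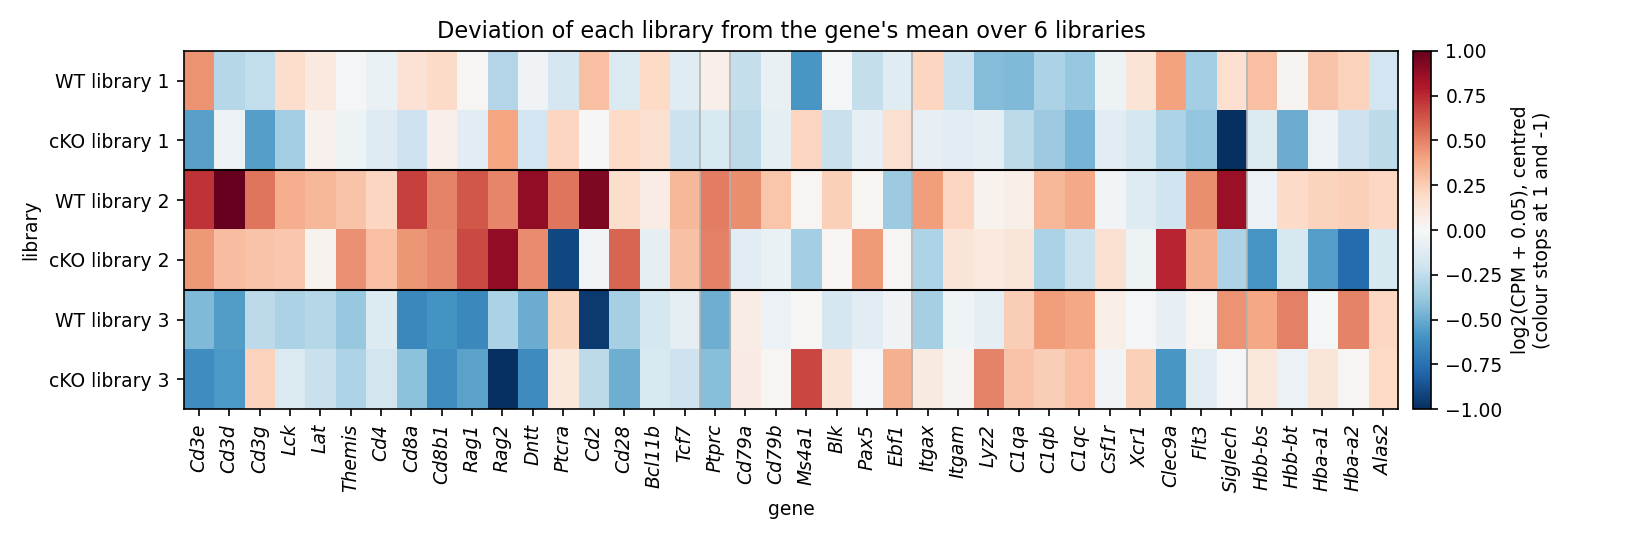
Deviation of each library from the gene's mean over 6 libraries, as log2(CPM + 0.05), with red above and blue below the mean and the libraries ordered by number. In the rows of libraries 2 most thymocyte genes and Ptprc are red, in those of libraries 3 most are blue, and Ptcra in cKO library 2 and the globins do not follow.

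A test of the library number with the genotype as a term (edgeR quasi-likelihood F test over all 28543 genes), chosen after these values were seen, called 6 of the 40 members, beside 1.14% of all genes. They were Rag1, Dntt, Ptprc, Cd8a, Tcf7 and Cd3d. The number of members called was 2 without WT library 2, 3 without cKO library 1, 4 without WT library 1 and 12 without WT library 3 or without cKO library 3. The same fits called 155, 103, 94, 1388 and 970 of all genes, so the fits with 12 members also called the most genes. Rag1 was called in all 11 settings tried and Dntt in 10.

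Among the genes of receptor assembly, Rag1 (ENSMUSG00000061311, chromosome 2, 101638282 to 101649501 in mm10) had 24.99, 38.0 and 15.8 CPM in WT libraries 1 to 3 and 23.0, 39.3 and 17.04 CPM in cKO libraries 1 to 3. The libraries numbered 2 were above the other 4 and those numbered 3 below them, in nearly the same amounts in both genotypes (adjusted p by library number = 1.86e-04, edgeR F test). Between the genotypes the fitted log2 fold change of Rag1 was 0.01 (SE 0.451, adjusted p = 0.999, edgeR), and it ran from −0.39 without cKO library 2 to 0.37 without WT library 2. Dntt (ENSMUSG00000025014, chromosome 19, 41029275 to 41059525), whose promoter is printed above with that of Rag1, had 9.38, 17.8 and 6.81 CPM in WT and 8.43, 13.4 and 6.19 CPM in cKO, in the same order of libraries (adjusted p by library number = 0.00163, edgeR F test). Its log2 fold change was −0.28 (SE 0.429, adjusted p = 0.911, edgeR), and 0.20 without WT library 2.

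Rag2 shared the order of that pair at a lower level. It lies beside Rag1 on chromosome 2 (101624718 to 101632529) and had 0.520, 0.930 and 0.511 CPM in WT and 0.867, 1.24 and 0.260 CPM in cKO, with both libraries numbered 2 highest and both numbered 3 lowest. Its mean count was 34, and 6.07% of its exon bases overlap B230118H07Rik on the opposite strand, a gene with a mean count of 377.5, so reads of the 2 cannot be told apart there. Ptcra, which encodes the pre-T cell receptor alpha chain, had 1.41, 2.32 and 1.86 CPM in WT and 1.86, 0.825 and 1.72 CPM in cKO. It was highest in WT library 2 but lowest in cKO library 2, so it did not share the order of the other genes of receptor assembly. Its log2 fold change was −0.34 (SE 0.333, adjusted p = 0.839, edgeR), and 0.13 without both libraries numbered 2.

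The CD3 chain genes, which lie next to each other on chromosome 9 between 44969572 and 45009627, encode the signalling part of the T cell receptor. Cd3e had 4.85, 5.85 and 2.60 CPM in WT and 2.41, 4.80 and 2.28 CPM in cKO, and the groups overlapped. Its log2 fold change was −0.49 (SE 0.347, adjusted p = 0.755, edgeR), the lowest of the thymocyte genes. Cd3d had 2.77, 7.67 and 2.29 CPM in WT and 3.25, 4.21 and 2.26 CPM in cKO, and WT library 2 stood well above the rest (adjusted p by library number = 0.0342, edgeR F test). Cd3g had 3.42, 5.92 and 3.39 CPM in WT and 2.77, 4.97 and 4.79 CPM in cKO, so cKO library 3 was not low for this chain.

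The kinase and adaptor genes of receptor signalling showed smaller ranges. Lck, the kinase tied to the coreceptors, had 17.6, 20.03 and 12.5 CPM in WT and 12.3, 18.8 and 14.1 CPM in cKO. Themis, a signalling regulator needed for selection of thymocytes, had 7.12, 8.77 and 5.50 CPM in WT and 6.91, 9.88 and 5.79 CPM in cKO. Both genes had their 2 highest values in the libraries numbered 2. Lat, the membrane adaptor of the receptor, had 2.32, 2.73 and 1.76 CPM in WT and 2.22, 2.22 and 1.84 CPM in cKO, a spread of 1.55-fold from lowest to highest.

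The coreceptor genes kept to the order of Rag1. Cd8a, on chromosome 6 at 71373427 to 71379173, had 10.5, 15.2 and 6.03 CPM in WT and 8.18, 12.9 and 7.09 CPM in cKO (adjusted p by library number = 0.0123, edgeR F test). Its neighbour Cd8b1, at 71322788 to 71337494, had 3.81, 4.73 and 2.19 CPM in WT and 3.47, 4.67 and 2.16 CPM in cKO. Cd4 had 22.4, 27.3 and 21.3 CPM in WT and 21.5, 28.9 and 20.6 CPM in cKO. All 3 had both libraries numbered 2 highest and both numbered 3 lowest, and the mean of the libraries numbered 2 was 2.14, 2.16 and 1.34 times that of the libraries numbered 3 for Cd8a, Cd8b1 and Cd4. The 3 fitted log2 fold changes between the genotypes lay between −0.17 and 0.00.

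Of the adhesion and costimulation genes, Cd2 had 2.71, 4.23 and 1.104 CPM in WT and 2.20, 2.15 and 1.82 CPM in cKO. The spread was wider in WT, and its log2 fold change of −0.38 (SE 0.382, adjusted p = 0.845, edgeR) became 0.11 without WT library 2. Cd28, the receptor for CD80 and CD86, had 5.22, 6.53 and 4.58 CPM in WT and 6.62, 8.65 and 4.10 CPM in cKO. Both genes had their 2 lowest values in the libraries numbered 3.

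The 2 transcription factor genes differed in level and in the order of libraries. Tcf7 had 102.8, 140.7 and 105.1 CPM in WT and 96.5, 137 and 96.6 CPM in cKO, so the libraries numbered 2 stood apart and the other 4 were close together (adjusted p by library number = 0.0132, edgeR F test). Bcl11b, which T cells need for commitment, had 23.0, 21.1 and 17.7 CPM in WT and 22.4, 18.8 and 17.99 CPM in cKO. For Bcl11b the libraries numbered 1 were highest in both genotypes.

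Ptprc, on chromosome 1 at 138062861 to 138175708, had 18.1, 24.8 and 12.4 CPM in WT and 15.7, 24.8 and 13.0 CPM in cKO. Its order of libraries was that of Rag1 (adjusted p by library number = 0.00409, edgeR F test), and its log2 fold change between the genotypes was −0.05 (SE 0.312, adjusted p = 0.983, edgeR), and it ran from −0.37 without cKO library 2 to 0.22 without WT library 2. The ratio of libraries numbered 2 to libraries numbered 3 had a median of 1.75 over the 17 thymocyte genes and was 1.95 for Ptprc. The median was 1.095 for B cell genes, 1.03 for myeloid genes, 0.856 for red cell genes and 0.9998 for all genes tested.

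**Figure D4:**
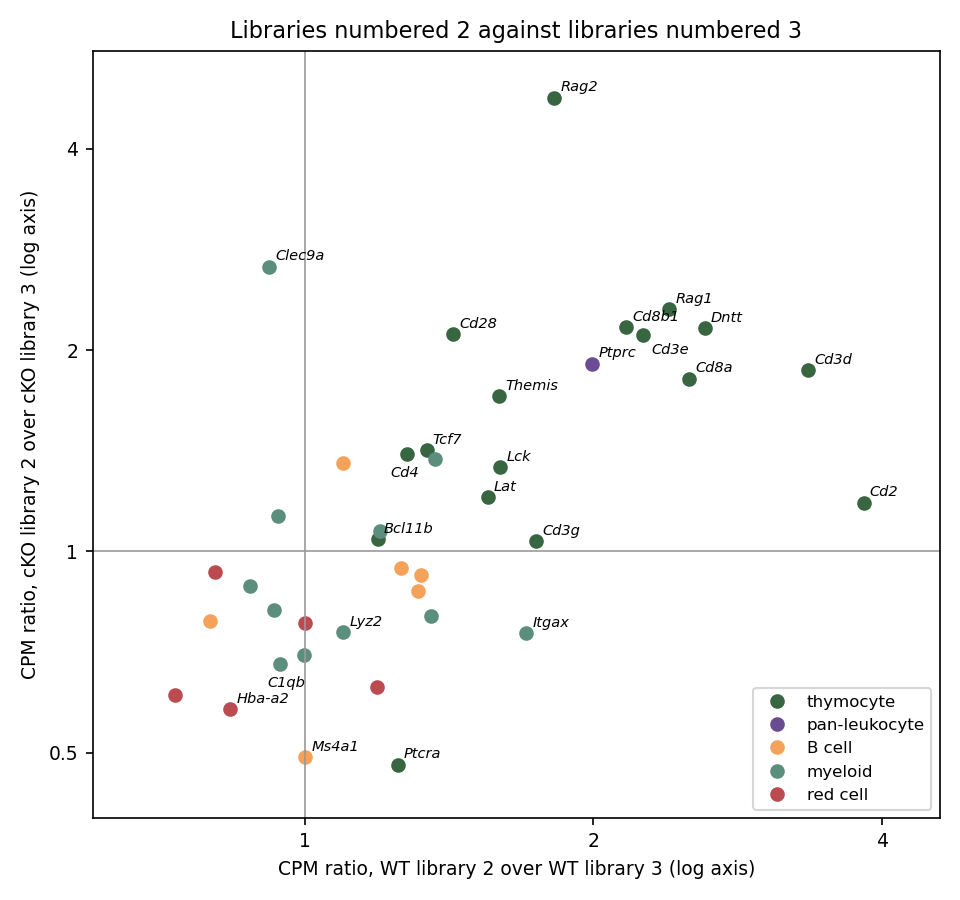
Ratio of CPM in library 2 to library 3, WT on the horizontal and cKO on the vertical log axis, 1 point per gene coloured by cell type. Rag1, Dntt, Cd3d, Cd3e, Cd8a, Cd8b1 and Ptprc lie near or above 2 on both axes, Ptcra lies below 1 in cKO, and the red cell genes lie at or below 1 in cKO.

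A wider list of 28 thymocyte genes was tested between the genotypes as well, and edgeR called 0. The median log2 fold change was 0.01, with 14 below 0, and 4 had an unadjusted p under 0.05, beside 8.51% of all genes. Of the 28 genes, 11 had their 2 highest values in the libraries numbered 2, beside 6.32% of all genes tested. The libraries were the same, so this count is not independent of that of the members. By library number 5 were called, beside 1.14% of all genes. They were Trbc1 and Trbc2, the constant regions of the T cell receptor beta chain, the chromatin organiser Satb1, the chemokine receptor Ccr7 and the transcription factor Ets1. Runx3 and Il2ra, which encode a factor of the CD8 lineage and the IL-2 receptor alpha chain, had mean levels of 50.9 and 46.9 TPM in WT and 47.0 and 42.3 TPM in cKO. Il7r had the smallest p between the genotypes (log2 fold change 0.47, SE 0.130, adjusted p = 0.320, edgeR). Genes of other lists were also called by library number, each beside the same 1.14% of all genes. They were 3 of 22 further myeloid genes (Mpeg1, Adgre1 and Cybb), 2 of 12 genes shared by leukocytes (Vav1 and Was) and 1 of 13 further B cell genes (Fcer2a). Of the 20 genes listed for mTEChi, 4 were called by library number, beside 1.14% of all genes. Libraries 2 were at 0.557, 0.728 and 0.777 times libraries 3 for Ccl21a, Krt5 and Krt14, and at 1.07 times for Cd86. The part of these differences in the thymocyte result was not tested.

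None of the 6 B cell genes was called by library number or between the genotypes. Their summed level was 77.1, 92.6 and 81.7 CPM in WT libraries 1 to 3 and 82.8, 95.9 and 93.7 CPM in cKO, with overlap and with the libraries numbered 2 highest in both genotypes. Cd79b and Cd79a, the signalling chains of the B cell receptor, differed in level, at means of 34.1 and 7.40 TPM in WT and 32.3 and 6.46 TPM in cKO. Cd79b had 19.7, 25.3 and 20.03 CPM in WT and 19.4, 19.9 and 21.1 CPM in cKO, and Cd79a had 3.70, 6.06 and 4.62 CPM in WT and 3.66, 4.04 and 4.63 CPM in cKO. For both chains WT library 2 was the highest of the 6. Blk, a kinase of B cells, had 12.1, 14.4 and 10.9 CPM in WT and 10.5, 12.4 and 13.4 CPM in cKO.

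Ms4a1, the gene of CD20, had 2.92, 4.44 and 4.44 CPM in WT and 5.11, 3.45 and 7.01 CPM in cKO (log2 fold change 0.40 with an SE of 0.259, adjusted p = 0.718, edgeR). The highest values were in cKO libraries 3 and 1, and the groups overlapped. Ebf1, a factor that specifies B cells (chromosome 11, 44617317 to 45008091), had 10.5, 8.83 and 11.1 CPM in WT and 12.8, 11.5 and 14.6 CPM in cKO. All 3 cKO values were above all 3 WT values, a separation in this direction that 7.2% of all genes tested showed, and Ebf1 was the only member to show it. Its log2 fold change was 0.35 (SE 0.145, unadjusted p = 0.0304, adjusted p = 0.537, edgeR). Pax5, the factor that maintains B cell identity, had 28.1, 33.6 and 30.7 CPM in WT and 31.4, 44.6 and 32.9 CPM in cKO, with both libraries numbered 2 highest and cKO library 2 well above the rest (log2 fold change 0.24 with an SE of 0.134, adjusted p = 0.682, edgeR). Of its exon bases, 7.18% overlap 5730488B01Rik on the opposite strand.

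Of 13 further B cell genes tested, edgeR called 0 (2 at an unadjusted p under 0.05, beside 8.51% of all genes). Their median log2 fold change was 0.00. Spib, which encodes an ETS factor also made by mature medullary epithelium, was at 464.8 and 471.7 TPM in WT and cKO, and Fcer2a, the gene of the low-affinity IgE receptor CD23, at 63.0 and 70.2 TPM. Cr2, the complement receptor gene, had the smallest p (log2 fold change 0.48, SE 0.133, adjusted p = 0.320, edgeR).

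The myeloid sum was set by Lyz2. The 11 genes summed to 547, 746 and 693 CPM in WT and 655, 755 and 964 CPM in cKO, and the log2 ratio of the group means was 0.26 with Lyz2 and −0.09 without it. Lyz2 (chromosome 10, 117277331 to 117282321) had 435, 602 and 550 CPM in WT and 548, 626 and 827 CPM in cKO. The cKO library 3 was highest and WT library 1 lowest, with overlap between (log2 fold change 0.33, SE 0.166, adjusted p = 0.645, edgeR). Its paralog Lyz1 was at 764 to 1213 TPM in the 6 libraries and shares 40.5% of the 25-base words of Lyz2. Reads with equally good alignments to either were not counted, so the split between the paralogs is uncertain.

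The 3 chains of complement C1q, made by tissue macrophages, lie together on chromosome 4 between 136880129 and 136898803. C1qb had 22.7, 35.5 and 37.7 CPM in WT and 21.9, 22.6 and 33.4 CPM in cKO (log2 fold change −0.30 with an SE of 0.220, adjusted p = 0.770, edgeR). C1qa had 8.66, 12.2 and 14.0 CPM in WT and 9.79, 12.8 and 14.4 CPM in cKO, and C1qc had 8.21, 13.9 and 14.0 CPM in WT and 7.71, 9.21 and 13.2 CPM in cKO. In each genotype the library numbered 1 was the lowest for all 3 chains, and the library numbered 3 the highest. That order is not the order of the thymocyte genes, and none of the 3 chains was called by library number, although C1qb was in 5 of the 11 settings, C1qc in 2 and C1qa in 1.

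Csf1r, the macrophage growth factor receptor, was the steadiest of the 40, with 38.7, 39.3 and 42.0 CPM in WT and 37.0, 44.5 and 39.4 CPM in cKO, a spread of 1.20-fold. Its exons overlap Hmgxb3 on the opposite strand over 15.1% of their bases. The integrin gene Itgam had 16.2, 21.8 and 18.2 CPM in WT and 17.4, 20.6 and 19.2 CPM in cKO, but 68.7% of its exon bases also belong to Gm49368 on the same strand, so its count is uncertain. Itgax, the gene of CD11c, had 2.79, 3.23 and 1.901 CPM in WT and 2.26, 1.93 and 2.56 CPM in cKO. Its log2 fold change of −0.23 (SE 0.251, adjusted p = 0.860, edgeR) became 0.04 without both libraries numbered 2.

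Of the dendritic cell genes, Siglech and Clec9a were among the lowest of the 40, and Flt3 and Xcr1 were higher. Flt3, a receptor of dendritic cell progenitors, had 5.95, 10.5 and 7.66 CPM in WT and 5.75, 9.67 and 7.03 CPM in cKO, with the same order of libraries in both genotypes and libraries numbered 2 highest. Xcr1 and Clec9a mark the conventional dendritic cells that cross-present antigen. Xcr1 had 6.24, 5.18 and 5.58 CPM in WT and 5.01, 5.45 and 6.67 CPM in cKO. Clec9a had 1.28, 0.824 and 0.899 CPM in WT and 0.761, 1.65 and 0.619 CPM in cKO, and cKO library 2 was the highest.

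Siglech marks plasmacytoid dendritic cells and had the largest fitted difference of the 40. It had 0.866, 1.44 and 1.06 CPM in WT and 0.317, 0.608 and 0.759 CPM in cKO, means of 1.12 ± 0.290 and 0.561 ± 0.225 CPM (SD, n = 3 each). All 3 cKO values were below all 3 WT values, as for 7.21% of all genes tested in this direction. The log2 fold change was −0.99 (SE 0.404, unadjusted p = 0.0292, adjusted p = 0.536, edgeR). Of 22 further myeloid genes edgeR called 0 (median −0.04, 2 at an unadjusted p under 0.05, beside 8.51% of all genes). S100a8, a calprotectin chain of neutrophils, was at 446.8 and 420.9 TPM in WT and cKO, and Irf8, a factor of dendritic cells, at 117.9 and 121.3 TPM. Cd209a had the smallest p of that list (log2 fold change −0.70, SE 0.258, adjusted p = 0.479, edgeR).

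The 5 red cell genes all had fitted values below 0, with a median log2 fold change of −0.40, and none passed the adjusted threshold, although Hba-a2 did in some alternatives. Their summed level was 73.0, 76.8 and 80.9 CPM in WT libraries 1 to 3 and 58.4, 49.0 and 71.7 CPM in cKO libraries 1 to 3, means of 76.9 ± 3.96 and 59.7 ± 11.4 CPM (SD, n = 3 each). The cKO sums were below the WT sums in all 3 libraries, with cKO library 3 close to WT library 1. The globin genes share sequence: 93.6% of the 25-base words of Hba-a2 occur in Hba-a1 and 60.2% of those of Hbb-bt in Hbb-bs, so each count is uncertain and the 4 globins are not independent.

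Hba-a2 (ENSMUSG00000069917, chromosome 11, 32296489 to 32297298), whose promoter is printed above, had 21.3, 21.4 and 25.7 CPM in WT and 15.8, 10.6 and 18.3 CPM in cKO. All 3 cKO values were below all 3 WT values, and cKO library 2 was the lowest. The means were 22.8 ± 2.49 and 14.9 ± 3.90 CPM (SD, n = 3 each), and the log2 fold change was −0.61 (SE 0.175, unadjusted p = 0.00433, adjusted p = 0.341, edgeR). Its adjusted p ran from 0.0221 to 1 over the alternatives, and with no filter on low counts it was 0.0491. Its near-identical neighbour Hba-a1, at 32283511 to 32284465, had 22.9, 21.9 and 18.5 CPM in WT and 17.99, 12.8 and 20.4 CPM in cKO, and its groups overlapped (log2 fold change −0.30 with an SE of 0.161, adjusted p = 0.654, edgeR).

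The adult beta globins lie on chromosome 7, and both had lower means in cKO. Hbb-bt had 5.50, 6.17 and 7.66 CPM in WT and 3.83, 4.82 and 5.17 CPM in cKO, with no overlap (log2 fold change −0.48 with an SE of 0.189, unadjusted p = 0.0240, adjusted p = 0.512, edgeR). Hbb-bs had 6.45, 5.01 and 6.85 CPM in WT and 4.73, 3.45 and 5.65 CPM in cKO, with overlap (log2 fold change −0.40 with an SE of 0.208, adjusted p = 0.644, edgeR). Siglech, Hbb-bt and Hba-a2 were the 3 of the 40 genes whose cKO libraries were all below WT, a share close to the 7.21% of all genes. Alas2, the enzyme that starts heme synthesis in red cell precursors, had 16.9, 22.3 and 22.3 CPM in WT and 16.1, 17.3 and 22.1 CPM in cKO (log2 fold change −0.15 with an SE of 0.150, adjusted p = 0.849, edgeR). Of its exon bases 12.9% overlap Apex2 on the opposite strand.

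**Figure D5:**
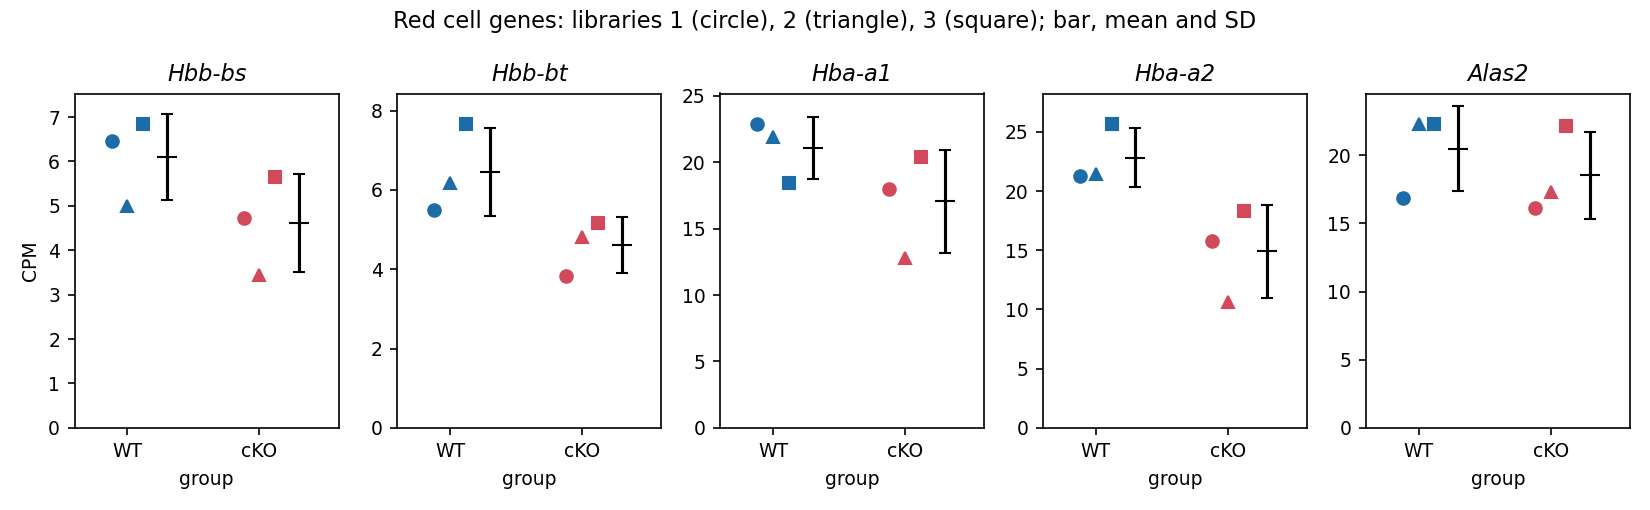
CPM of the 5 red cell genes in each library from a zero baseline, WT in blue and cKO in red, with the mean and SD of 3 libraries beside them. For Hba-a2 the WT values lie between 21.3 and 25.7 CPM and the cKO values between 10.6 and 18.3 CPM, and for Hba-a1, Hbb-bs and Alas2 the groups overlap.

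Of 11 further red cell genes edgeR called 0, with a median log2 fold change of −0.26. Of the 11, 8 were below 0, beside 14544 of all 28543 genes, and 4 had an unadjusted p under 0.05, beside 8.51% of all genes. Hbb-y, an embryonic beta globin, had the smallest p (log2 fold change −0.61, SE 0.165, adjusted p = 0.309, edgeR), at 46.1 TPM in WT and 30.7 TPM in cKO, above the 20.7 and 15.0 TPM of the adult Hbb-bt. The alpha-like embryonic globin Hba-x was at 63.5 and 48.1 TPM. The transferrin receptor gene Tfrc, used by many dividing cells, was at 53.2 and 53.7 TPM, and Epb42, a protein of the red cell membrane skeleton, at 16.5 and 16.2 TPM.

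In the lists of other blood and stromal cells edgeR called 0 genes as well. At an unadjusted p under 0.05 there were 0 platelet, 0 NK cell, 2 fibroblast and endothelial genes and 1 gene shared by leukocytes, Dock2. The share over all genes was 8.51%. Platelet genes had a median log2 fold change of 0.08 over 6 genes, with Pf4 at 22.5 and 27.5 TPM and Ppbp at 13.6 and 16.7 TPM. NK cell genes had a median of −0.21 over the 6 of 8 that passed the filter, with the granzyme gene Gzmb at 20.6 and 21.6 TPM and the factor gene Eomes at 6.61 and 6.93 TPM. Nkg7 had the smallest p of that list (log2 fold change −0.62, SE 0.371, adjusted p = 0.701, edgeR), and the defining receptor gene Ncr1 was at 0.183 and 0.0624 TPM. Fibroblast and endothelial genes had a median of −0.07 over 12, with the collagen gene Col1a1 at 23.4 and 18.6 TPM and Pdgfrb, a receptor of mesenchymal cells, at 21.2 and 25.3 TPM. The 12 genes shared by leukocytes had a median of −0.01, with Laptm5 at 542 and 523 TPM and Lcp1 at 164 and 189 TPM. Over these lists and the further thymocyte, B cell, myeloid and red cell genes, limma-voom called 0 and DESeq2 called Dock2 alone, a regulator of leukocyte migration (log2 fold change 0.49, SE 0.117, adjusted p = 0.231, edgeR).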

How the data were processed

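The deposited count files hold whole-number read counts per gene for 55385 genes, which the authors made with featureCounts 2.0.0 on Ensembl release 99 exons, per the file headers, without strand, with reads that overlap several genes counted for each and without multiply aligned reads. TopHat2 2.1.1, SAMtools 1.9, Subread 2.0.1 and mm10 are named in the submitters' processing notes. The authors' series table holds the same counts for 51810 genes and their TPM, used here for levels. Tests used edgeR 4.0.16 (R 4.3.3, TMM, filterByExpr, robust quasi-likelihood F test, adjusted p under 0.05). CPM are TMM scaled, and SE is the log2 fold change over the square root of F. DESeq2 1.42.0 and limma 3.58.1 were alternatives. The scripts were tested on simulated data. The members, lists and rules were chosen with earlier results of these data known. Values per library are given for members with a mean of at least 1 CPM or the highest of their role, and for the few below it; of each other list, the text names the 2 genes of highest mean CPM and the gene of smallest p, and a few others after their values were seen. Promoters are RefSeq's, in GRCm38.p6. Floors cover counting error only.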

Additional observations from a re-analysis of the deposited data

How the results depend on the processing

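Between the genotypes, 17 of all genes were called. The count was 186 with DESeq2, 5 with limma-voom, 160 with no filter, 6 without robust estimation, 8 without both libraries numbered 2 (chosen after seeing the data), and 6 to 16 when 1 library was left out. With the library number as a replicate block 203 genes were called. The block lowered the SE from 0.451 to 0.102 for Rag1 and from 0.312 to 0.113 for Ptprc. The SEs printed above thus include differences between library numbers. The deviations of same-numbered libraries correlated at 0.113, 0.0544 and 0.0755, so the numbers were not taken as pairs, although every library correlated best with its own number. These correlations were taken over all genes tested, so they cannot decide whether part of the genes follow the number. By library number, 324 genes were called. No member was called higher in any setting. The count of members called lower was 1 with the replicate block and 1 with no filter, Hba-a2 in both (adjusted p = 0.0221 and 0.0491), beside 0.228% of all genes called lower with the block. In the other lists the block called Hbb-y (adjusted p = 0.0494), Cr2 (0.0158), Dock2 (0.0221) and Foxn1 (0.00242). For Hba-a2 the adjusted p ran from 0.0221 to 1 over all alternatives, with log2 fold changes from −0.79 to −0.42. By library number, all genes called were 1186 with no filter and 94 to 1388 when 1 library was left out, and members called were 16 and 2 to 12. Of 287 alternative log2 fold changes of the 18 members with printed tests, 271 kept their direction and side of the threshold. The 271 include the DESeq2 values of Siglech and Ptcra, which kept their direction but had no adjusted p. When 1 library was left out, the log2 fold change ran from −0.63 to 0.20 for Dntt, from −0.75 to 0.11 for Cd2, from −0.39 to 0.37 for Rag1 and from −0.37 to 0.22 for Ptprc. Rag1 had −0.0076 with upper-quartile scaling, −0.012 with library totals only and −0.0301 without both libraries numbered 2. The value was 0.13 for Ptcra, 0.077 for Cd2 and 0.039 for Itgax without both libraries numbered 2, and the cause was not tested. The myeloid log2 ratio was −0.092 without Lyz2. Siglech did not reach the filter of 1 CPM in 3 libraries.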

Other observations

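The genes whose pattern over the 6 libraries was nearest to the summed thymocyte level were sought among 24729 genes outside the members, by the root mean square difference of log2 values centred on their mean. The summed level had a range of 0.67 on the log2 scale. The nearest was Oprd1, an opioid receptor gene (0.0691), followed by Gm42635, Gm6190, Gm13502, Cmc2, Flywch2, Gm10156, Zeb1, 4930556J24Rik and Tmem200b, up to 0.0961. For the summed red cell level, with a range of 0.72, the nearest was Nup43, a nuclear pore gene (0.0276), followed by Rps12-ps17, Gm13935, Olfm1, Chst13, Thbs4, Ano2, Prrt3, Rps12-ps3 and Psg28, up to 0.0602. The genes were ranked over 6 libraries only, and neither list of 10 holds a blood cell marker from the lists used here.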
